A study of Homo sapiens with 4 samples.

Results

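Latrophilins and 6 further adhesion G protein-coupled receptors (GPCRs) were followed in RNAseq data from FLO-1 parental cells and FLO-1LM, its liver metastasis subline. The 9 genes are *LPHN1*, *LPHN2*, *LPHN3*, *CD97*, *GPR56*, *GPR126*, *CELSR1*, *CELSR2* and *CELSR3*, which later annotations call *ADGRL1*, *ADGRL2*, *ADGRL3*, *ADGRE5*, *ADGRG1* and *ADGRG6*, with the *CELSR* names kept. They were found by gene symbol among the 63677 genes of the count files, and each matched 1 Ensembl gene. The set was chosen by earlier results of this same comparison, in which *LPHN2* stood among the genes higher in FLO-1LM. Differences between the lines in the 9 genes are therefore given as a description, with standard errors and without printed p-values. The number of members with an adjusted p below 0.05 is given further on, and nothing is read from it.

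FLO-1 cells came from a human adenocarcinoma of the esophagus and are an established line. Immunodeficient NSG mice carried FLO-1 over several rounds, and FLO-1LM was established in culture from a metastasis in the liver. Each line is represented by 2 libraries of cultured cells, with no treatment named. FLO-1LM is 1 isolate, so a feature of that isolate cannot be told apart from a feature of metastatic FLO-1 cells, and a batch that followed the line could not be told apart from it either. No source used here says that the 2 libraries of a line were grown separately. P-values therefore measure only the spread between these libraries, which may be technical. Total counts per library ran from 19060310 to 25920336. Levels are given as CPM, which are counts relative to the TMM-adjusted total of their library. Of 5 epithelial markers, *KRT8*, *KRT18*, *KRT19* and *CDH1* were expressed in both lines and were all lower in FLO-1LM, and the list summed to 495.5 and 481.8 CPM in FLO-1LM and 844.9 and 857.6 in parental cells. *EPCAM*, a usual marker of adenocarcinoma cells, was at 3 to 12 counts per library. All 4 hepatocyte, all 5 leukocyte and all 3 matched endothelial markers stayed under 1 CPM in every library. The 5 fibroblast markers summed to 10.01 to 13.1 CPM, nearly all of it *COL1A1*, and the 4 neuronal markers to 21.3 to 27.2 CPM, mostly *SYP*.

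Adhesion GPCRs join a long extracellular part, which holds adhesion domains, to the membrane-spanning part of a G protein-coupled receptor. Between them lies a domain that can cut the receptor at the GPCR proteolysis site (GPS), after which both fragments stay bound to each other until a ligand or pulling force exposes a tethered agonist. Latrophilins bind FLRT proteins, teneurins and neurexins on neighboring cells and are best known at synapses, CD97 and GPR56 are known from leukocytes and carcinomas, GPR126 is required for myelination by Schwann cells, and the CELSR receptors are the mammalian flamingo cadherins of planar cell polarity.

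The coding sequence of the GPS is shown because it is what the members share outside the expression data, and because it differs among them at the cut itself. Each is read from the canonical GENCODE transcript on GRCh37, 5′ to 3′ on the coding strand, and in every member it lies within 1 coding exon. Capitals mark codons 5 to 7 of the stretch, which in a cleavable site commonly encode histidine, leucine and a serine or threonine, with the cut after the leucine.
LPHN1 (chr19:14268709-14268747, reverse strand): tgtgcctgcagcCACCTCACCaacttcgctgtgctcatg
LPHN2 (chr1:82433827-82433865, forward strand): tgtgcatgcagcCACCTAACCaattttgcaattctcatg
LPHN3 (chr4:62813938-62813976, forward strand): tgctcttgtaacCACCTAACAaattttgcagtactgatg
CD97 (chr19:14515318-14515356, forward strand): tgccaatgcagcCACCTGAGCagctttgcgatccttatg
GPR56 (chr16:57690491-57690529, forward strand): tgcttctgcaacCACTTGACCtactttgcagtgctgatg
GPR126 (chr6:142732510-142732548, forward strand): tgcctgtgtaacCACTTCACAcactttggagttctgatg
CELSR1 (chr22:46774506-46774544, reverse strand): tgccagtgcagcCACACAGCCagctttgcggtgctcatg
CELSR2 (chr1:109812386-109812424, forward strand): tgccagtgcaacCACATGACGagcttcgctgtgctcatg
CELSR3 (chr3:48683193-48683231, reverse strand): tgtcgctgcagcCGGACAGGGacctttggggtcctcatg

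The 3 latrophilins and *GPR56* encode His-Leu-Thr at these codons, and *CD97* encodes His-Leu-Ser. *GPR126* encodes His-Phe-Thr and *CELSR2* His-Met-Thr, while *CELSR1* and *CELSR3* encode His-Thr-Ala and Arg-Thr-Gly. The search asked for a cysteine, any residue and a cysteine, then 4 to 7 residues, a phenylalanine or tyrosine, any residue, a valine or isoleucine, a leucine or methionine, and a methionine. Of 20274 canonical coding transcripts, 19 held this pattern (0.0937%), and all 19 belong to the adhesion GPCR family. Another 12 of the 31 family transcripts searched did not hold it, among them *BAI1*, *BAI2*, *GPR124* and *GPR125*. The search asks for a strict form, so it does not show that these 12 lack a GPS. Of the 19 that held the pattern, 14 had histidine, leucine and serine or threonine within it. A match is a description of the sequence, and cleavage of the proteins was not measured here.

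The members differed widely in level. Levels are compared between genes as CPM per kilobase of annotated exon, since a longer transcript collects more reads. Lengths came from GENCODE v44. It matched 55665 of 63677 gene IDs in the count files, so the exons counted may differ from those measured. *CD97*, a receptor for the complement regulator CD55, was the most abundant at 19.6 to 22.5 CPM per kb over the 4 libraries. *GPR126* followed at 8.47 to 9.62, without overlap with either neighbor in the order under this length. *CELSR3* (7.76 to 8.46), *CELSR1* (6.55 to 7.98), *LPHN1* (6.71 to 7.59) and *CELSR2* (6.43 to 7.004) came next, with overlap between each and the one named after it. *GPR56* was far lower at 0.837 to 1.21 CPM per kb, and *LPHN2* had 0.722 and 0.689 in FLO-1LM and 0.225 and 0.265 in parental cells. *LPHN3* had 0 counts in every library, which allows up to 0.117 to 0.156 CPM at the limit of 3 counts, a limit that covers counting error only. These levels depend on the length used, above all for *LPHN2*, whose annotated exons add up to 24178 bases while its longest transcript has 8764. Per kb of the longest transcript *LPHN2* was at 1.99 and 1.90 in FLO-1LM and 0.621 and 0.732 in parental cells. Its FLO-1LM values then lay within the range of *GPR56* over the 4 libraries, 1.77 to 2.57, and its parental values lay below that range. *CELSR1* and *CELSR3* changed places under that length, and no other member did. *GPR126*, at 10.2 to 11.6 per kb of the longest transcript, then overlapped *CELSR1*, at 8.88 to 10.8.

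**Figure D1:**
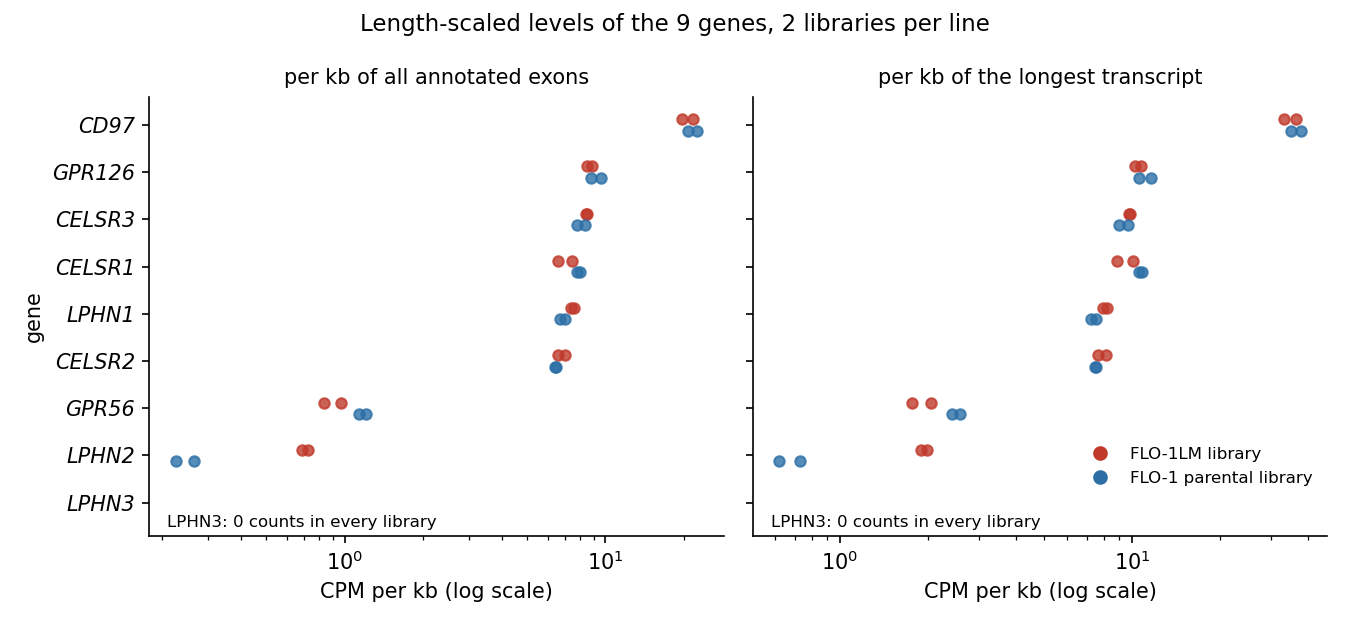
Level of each gene in the 4 libraries as CPM per kb on a log axis, per kb of all annotated exons (left) and of the longest transcript (right). *CD97* was highest under both lengths and 5 genes lay close together below it, while *GPR56* and *LPHN2* were lower and *LPHN3*, with 0 counts, has no point.

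The gene of *LPHN2* (ENSG00000117114) spans 81771832 to 82459616 on chromosome 1 of GRCh37, forward strand. Its 389 and 429 counts in FLO-1LM and 120 and 123 counts in parental cells gave 17.5 and 16.7 CPM against 5.44 and 6.42 after TMM scaling. Both FLO-1LM libraries were above both parental libraries, and the gap was larger than the distance within either pair. The mean was 17.1 ± 0.564 CPM in FLO-1LM and 5.93 ± 0.687 in parental cells (SD, n = 2 each). The log2 fold change was 1.53 with a standard error (SE) of 0.18, or 2.88-fold. By the size of its log2 fold change it ranked 71 from the highest among the 17143 genes tested. Leaving out 1 library at a time moved the log2 fold change between 1.41 and 1.65. RefSeq lists 8 transcription starts for this gene in the table used here (GRCh38.p14), and counts per gene do not show which of them the reads came from. In these bulk libraries a larger share of cells that express *LPHN2* cannot be told apart from more *LPHN2* RNA per cell. The lower epithelial markers given above moved with the same comparison, and their part in the *LPHN2* difference was not tested.

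**Figure D2:**
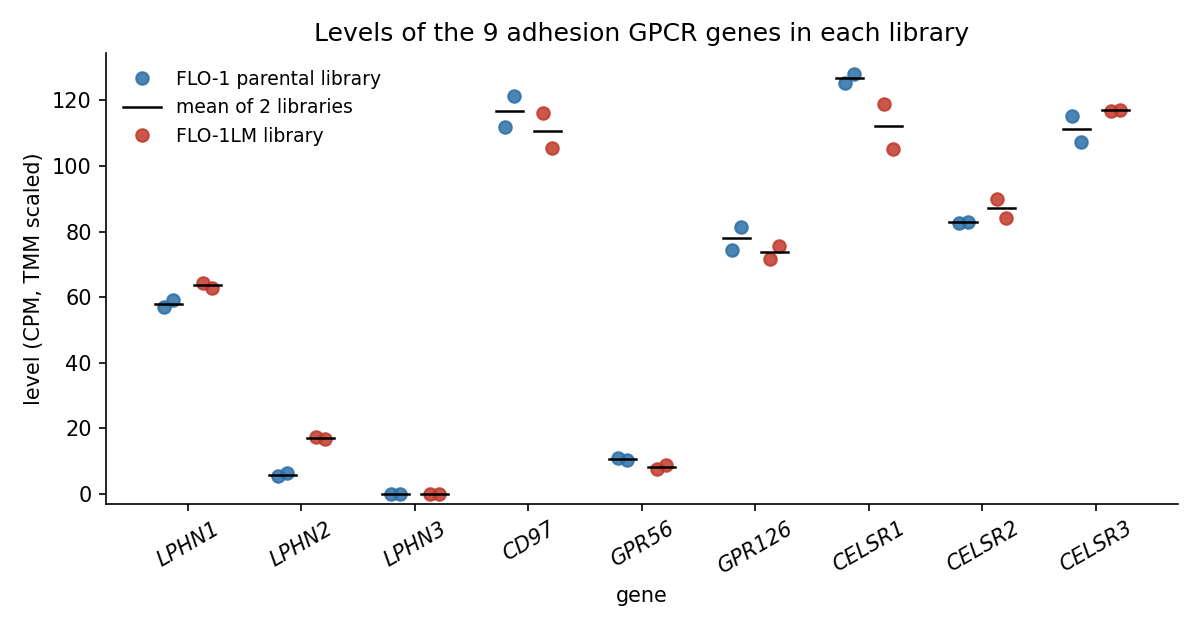
Level of each of the 9 genes in CPM after TMM scaling, with 1 point per library and a line at the mean of each line's 2 libraries. *LPHN2* lay at 16.7 to 17.5 CPM in FLO-1LM and 5.44 to 6.42 in parental cells, and the other 7 genes with counts had their means closer together relative to their level.

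*LPHN1* (ENSG00000072071), reverse strand of chromosome 19, 14258555 to 14316999, was the main latrophilin by counts in both lines. It had 64.4 and 62.7 CPM in FLO-1LM and 57.0 and 59.1 in parental cells. The 2 lines did not overlap, but the log2 fold change was only 0.13 (SE 0.089). Its exons share 473 bases with *ADGRL1-AS1*, an antisense RNA gene on the opposite strand with 14 to 23 counts per library, against 1134 to 1614 for *LPHN1*, and reads of both cannot be told apart where counting ignored strand, which is not stated. *LPHN3* (ENSG00000150471), on chromosome 4 from 62066044 to 62944053, had no count in either line.

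With *LPHN3* at 0, the latrophilin counts were divided between *LPHN1* and *LPHN2*. *LPHN2* took 21.3% of them in FLO-1LM replicate 1 (95% Wilson interval 19.5 to 23.3) and 21.0% in replicate 2 (19.3 to 22.8). In parental cells it took 8.72% in replicate 1 (7.34 to 10.3) and 9.79% in replicate 2 (8.26 to 11.6). The intervals cover counting error only, and since the set was chosen with *LPHN2* known to be higher in FLO-1LM, the shares are a description. Per kb of all annotated exons, the share was 8.69% and 8.53% in FLO-1LM and 3.245% and 3.67% in parental cells. Per kb of the longest transcript it was 19.5% and 19.2% against 7.89% and 8.86%, so its size depends on the length used. *LPHN1* had 3.69 and 3.76 times the counts of *LPHN2* in FLO-1LM and 10.5 and 9.22 times in parental cells, so it remained the larger of both in every library.

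**Figure D3:**
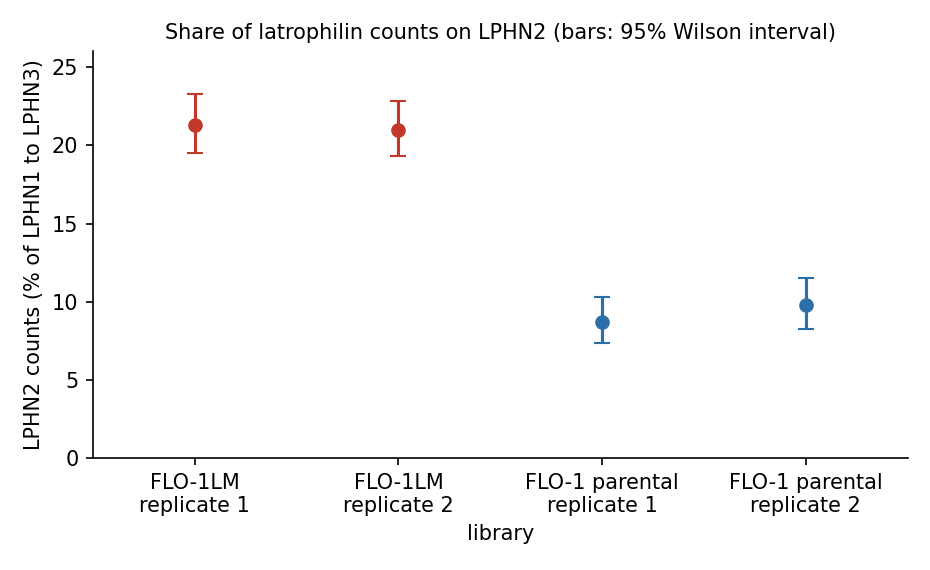
Counts on *LPHN2* as a percentage of all counts on *LPHN1*, *LPHN2* and *LPHN3* in each library, with 95% Wilson intervals for counting error. The FLO-1LM libraries sat at 21.3% and 21.0%, and the parental libraries at 8.72% and 9.79%.

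*CD97* (ENSG00000123146, chromosome 19 from 14491313 to 14519537, forward strand) had 116.0 and 105.3 CPM in FLO-1LM and 112.0 and 121.2 in parental cells, and the lines overlapped. The log2 fold change was −0.08 (SE 0.083). Reads of *CD97* could be shared with *EMR2*, a paralog with closely similar EGF-like domains, but *EMR2* had only 0 to 7 counts per library. An antisense gene that shares 252 exon bases with *CD97*, ENSG00000267379, had 4 to 14.

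*GPR56* (ENSG00000205336), on chromosome 16 from 57644564 to 57699492, encodes a receptor for collagen III and transglutaminase 2. Its level was 7.54 and 8.74 CPM in FLO-1LM and 10.9 and 10.3 in parental cells. Both FLO-1LM libraries were lower, at a log2 fold change of −0.38 with a standard error of 0.19. *GPR126* (ENSG00000112414), on chromosome 6 from 142622991 to 142767403, encodes a receptor for collagen IV, laminin-211 and the prion protein. It had 71.8 and 75.6 CPM in FLO-1LM and 74.3 and 81.5 in parental cells, with overlap between the lines and a log2 fold change of −0.08 (SE 0.088).

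The 3 *CELSR* genes were all among the more abundant members, although *CELSR3* is best known from developing neurons and *CELSR1* from epithelia. *CELSR1* (ENSG00000075275, chromosome 22 from 46756731 to 46933517) was at 119.0 and 105.1 CPM in FLO-1LM and 125.3 and 128.0 in parental cells. The FLO-1LM libraries were lower, with a log2 fold change of −0.18 (SE 0.083). This value leaned on single libraries, at −0.27 without FLO-1LM replicate 1 and −0.09 without FLO-1LM replicate 2. *CELSR2* (ENSG00000143126, chromosome 1 from 109792161 to 109818373) was at 89.9 and 84.3 CPM in FLO-1LM and 82.5 and 83.0 in parental cells, and *CELSR3* (ENSG00000008300, chromosome 3 from 48673896 to 48700319) at 116.7 and 117.1 against 115.2 and 107.4. Both had log2 fold changes of 0.07, with standard errors of 0.083 and 0.079. Added together, the 3 genes came to 316.0 ± 13.6 CPM in FLO-1LM and 320.7 ± 3.25 in parental cells (SD, n = 2 each), a difference within the spread between libraries.

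Of the 9 members, 8 passed the filter on low counts, and 1, *LPHN2*, had an adjusted p below 0.05 in edgeR's quasi-likelihood test over all genes, here a call. Over all 17143 genes the share below this threshold was 2.23%, with 0.402% higher and 1.83% lower in FLO-1LM. The 2 lines did not overlap in 6 of the 8 tested members, beside 42.6% of all genes tested. Since the set was chosen on this comparison, nothing is read from these counts. The small differences moved with single libraries: with 1 library left out, the log2 fold change ran from −0.15 to −0.01 for *CD97*, from −0.14 to −0.01 for *GPR126*, from 0.03 to 0.12 for *CELSR2* and from 0.02 to 0.12 for *CELSR3*. The ends of these ranges came from leaving out FLO-1LM libraries for *CD97* and *CELSR2* and parental libraries for *GPR126* and *CELSR3*. The 9 genes together came to 589.0 ± 19.3 CPM in FLO-1LM and 589.8 ± 10.04 in parental cells (SD, n = 2 each), a difference smaller than the spread between libraries.

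The rest of the adhesion GPCR family was mostly at or near 0 counts. Of 24 further family genes, 8 had no count in any library, 18 had fewer than 10 counts in every library, and 5 passed the filter. Over all genes tested, edgeR called 2.23%, and 12.4% had an unadjusted p below 0.05. Beside these shares, 0 of the 5 family genes had an adjusted p below 0.05 in edgeR's test and 0 an unadjusted p below 0.05. DESeq2 and limma voom also called 0 of the 5, and so few genes cannot show that the family did not change. The most abundant were *BAI2* and *BAI1*, brain angiogenesis inhibitors known from neurons. *BAI2* had 48.1 and 50.7 CPM in FLO-1LM and 48.0 and 53.0 in parental cells, and *BAI1* had 52.0 and 43.6 against 42.1 and 48.2. *GPR125*, which binds the cell polarity protein DLG1, had 33.1 and 36.6 CPM in FLO-1LM and 32.6 and 31.4 in parental cells, with a log2 fold change of 0.12 (SE 0.11). *GPR124*, a coreceptor for WNT7 in brain vessels, was lower at 4.99 to 6.69 CPM, and *GPR123* lower still at 0.939 to 1.57. Over all 33 family genes the summed level was 729.6 ± 21.5 CPM in FLO-1LM and 725.9 ± 18.0 in parental cells (SD, n = 2 each).

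**Figure D4:**
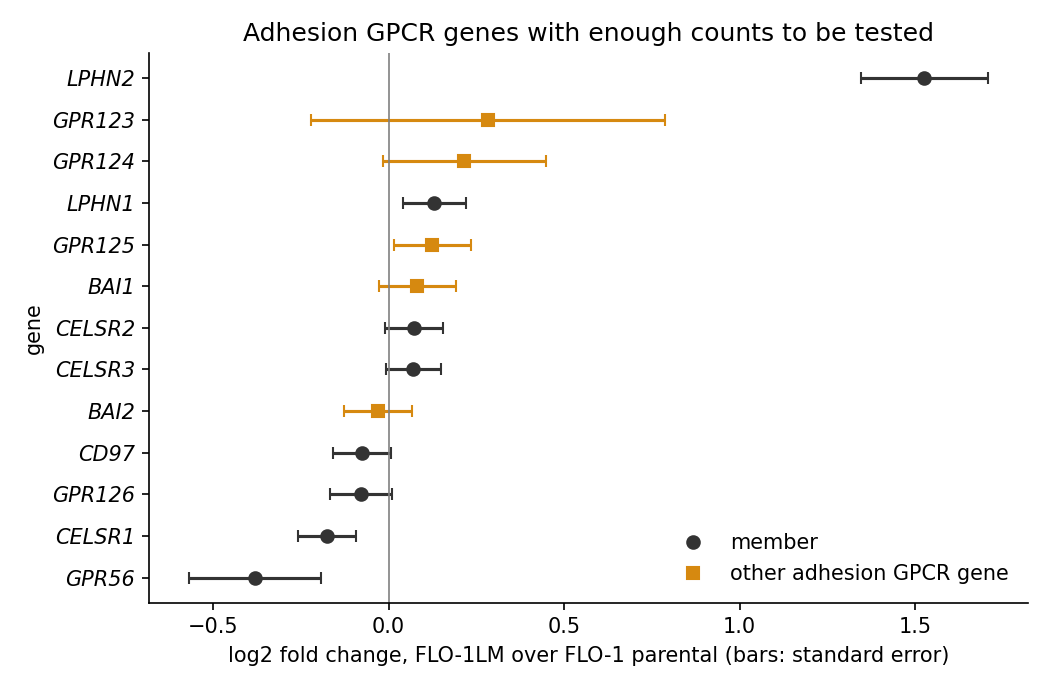
Log2 fold change of FLO-1LM over parental cells for the 8 members and 5 further family genes that passed the low-count filter, with bars of 1 standard error. *LPHN2* was at 1.53, and the other 12 genes lay between −0.38 and 0.28.

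The ligands and partners were read from 6 lists of 50 genes in all, written with earlier results of these data known. Their calls and p-values, here and below, are therefore a description and not an independent test. Of the 50 genes, 29 passed the filter. Of these, 0 were called higher and 2 lower in FLO-1LM, and the other 27 did not pass the threshold, beside 0.402% called higher and 1.83% called lower over all genes tested. The median log2 fold change was 0.012, beside 0.002 over all genes tested. Nearly all latrophilin ligands were at or near 0. *FLRT2* and *TENM3* had no count, *TENM1*, *TENM2* and *TENM4* had at most 8 counts per library, and *FLRT1* and *FLRT3* at most 16. *NRXN3*, a neurexin, had 2.47 and 2.45 CPM in FLO-1LM and 1.13 and 2.35 in parental cells, with a log2 fold change of 0.51 (SE 0.41, edgeR adjusted p = 0.703). *NRXN2* had 5 to 21 counts per library, and *UNC5A* had 4.36 to 5.84 CPM.

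*UNC5B*, a netrin receptor of the family that FLRT proteins also bind, fell in FLO-1LM. It had 27.9 and 23.6 CPM there and 37.2 and 37.81 in parental cells, which did not overlap. The log2 fold change was −0.54 (SE 0.12, n = 2 libraries per line), with an edgeR adjusted p of 0.0165. The log2 fold change was −0.55 without parental replicate 1 and −0.53 without parental replicate 2. It was −0.67 and −0.425 without FLO-1LM replicates 1 and 2. The call was lost without either parental library and kept without either FLO-1LM library. Calls over all genes also became fewer without a parental library and more without a FLO-1LM library. Each of these fits leaves 1 library in a line.

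*TGM2*, which encodes transglutaminase 2, a ligand of GPR56, also fell in FLO-1LM. It had 44.6 and 45.6 CPM in FLO-1LM and 57.3 and 58.6 in parental cells, without overlap. The log2 fold change was −0.36 (SE 0.093, n = 2 libraries per line), with an edgeR adjusted p of 0.0484. The call sat at the threshold, with an adjusted p of 0.0761 from DESeq2 and 0.0503 from limma voom. It was lost without either parental library, where calls over all genes also became fewer. With 1 library left out, the log2 fold change ran from −0.38 to −0.35. *COL3A1*, the other ligand on the GPR56 list, had no count in any library.

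Genes on the CD97 ligand list, which names integrin subunits singly, were expressed in both lines, apart from *THY1* with no count and *ITGB3* with at most 4. *ITGB1*, the integrin β1 subunit, had 538.4 and 610.6 CPM in FLO-1LM and 505.0 and 507.0 in parental cells, a log2 fold change of 0.18 (SE 0.074, edgeR adjusted p = 0.293). *CD55* had 49.5 and 60.2 CPM against 63.4 and 59.8. *ITGAV* and *ITGA5* had log2 fold changes of −0.07 and −0.08. Of these 4 tested genes, 0 were called by edgeR, DESeq2 or limma voom, and 1 had an unadjusted p below 0.05 in edgeR. The edgeR shares over all genes tested were 2.23% called and 12.4% with an unadjusted p below 0.05.

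Among GPR126 ligands, *LAMC1* (laminin γ1) was at 300.7 to 326.0 CPM, *PRNP* (the prion protein) at 114.3 to 136.1 and *LAMB1* (laminin β1) at 45.1 to 51.6. The collagen IV genes *COL4A1* and *COL4A2* had at most 9 counts per library, *COL4A4* had 17 to 30, and *LAMA2*, which encodes the α chain of laminin-211, had 0 in FLO-1LM and 3 in each parental library. Of the 4 tested genes, 0 were called by edgeR, DESeq2 or limma voom, and 0 had an unadjusted p below 0.05 in edgeR. These counts stand beside 2.23% called and 12.4% with an unadjusted p below 0.05 over all genes tested in edgeR.

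Of 12 planar cell polarity genes that work with the CELSR receptors, 11 were tested. EdgeR, DESeq2 and limma voom called 0 of them, and 1 had an unadjusted p below 0.05 in edgeR. For all genes tested, edgeR called 2.23%, and 12.4% had an unadjusted p below 0.05. *DVL1*, a dishevelled scaffold, was at 160.3 and 143.9 CPM in FLO-1LM and 141.4 and 154.9 in parental cells. *SCRIB*, a basolateral polarity protein, had a log2 fold change of 0.14 (SE 0.079), *DVL2* of 0.19 (SE 0.092) and *DVL3* of 0.01 (SE 0.081).

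Of 5 scaffold and arrestin genes tested, 0 were called by edgeR, DESeq2 or limma voom and 1 had an unadjusted p below 0.05 in edgeR. *ARRB2*, β-arrestin 2, had 68.3 and 81.8 CPM in FLO-1LM and 62.5 and 62.1 in parental cells (log2 fold change 0.27, SE 0.097, edgeR adjusted p = 0.211). *ARRB1*, *SHANK2* and *SHANK3*, the last 2 being postsynaptic scaffolds of the family that binds latrophilins, had log2 fold changes of −0.09, −0.15 and 0.01. Over all genes tested, edgeR called 2.23%, and 12.4% had an unadjusted p below 0.05.

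**Figure D5:**
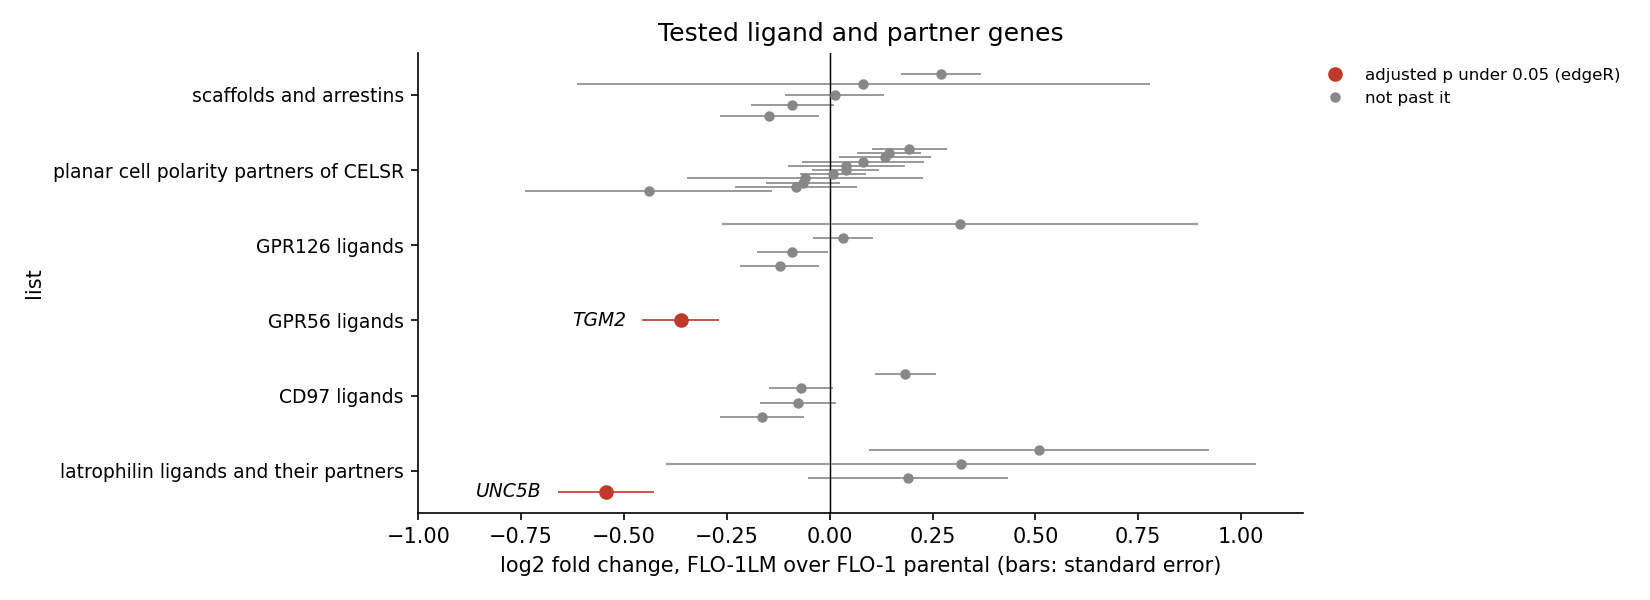
Log2 fold change of FLO-1LM over parental cells for the 29 tested ligand and partner genes, grouped by list, with bars of 1 standard error. *UNC5B* (−0.54) and *TGM2* (−0.36) are the only genes past an adjusted p of 0.05 in edgeR.

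The genes around *LPHN2* were examined after the values above had been seen. Within 5 Mb on either side, 36 other genes were tested, with a median log2 fold change of 0.032. EdgeR called 2 of them, both higher in FLO-1LM, beside 2.23% called and 0.402% called higher over all genes tested. *CCN1*, which encodes a secreted matrix-associated protein and spans 86046444 to 86050272 on chromosome 1, was at 0.33 (SE 0.083, edgeR adjusted p = 0.0435). *RPL17P6*, a processed pseudogene that could share reads with *RPL17*, had 0.86 (SE 0.20, edgeR adjusted p = 0.0242). The nearest tested protein-coding genes on each side were *IFI44*, an interferon-induced gene at −0.39 (SE 0.12, edgeR adjusted p = 0.114), and *TTLL7*, a tubulin-modifying enzyme at 0.74 (SE 0.25, edgeR adjusted p = 0.187).

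The genes most like *LPHN2* were those with the smallest Euclidean distance between log2 CPM values centered on the mean of the 4 libraries. They were *RPL17P50* (distance 0.0785), *SAMD5* (0.186), *TMEM220-AS1* (0.191), *CACNG7* (0.196) and *GTF2IP14* (0.279). All 5 were at or under 2.37 CPM in every library, and 0 of them had an adjusted p below 0.05 in edgeR. *SAMD5*, the most abundant of them, was at 2.29 and 2.37 CPM in FLO-1LM and 0.726 and 0.730 in parental cells (log2 fold change 1.67, SE 0.47, edgeR adjusted p = 0.0802). With 4 libraries in 2 groups, likeness of this kind says little beyond the difference between the lines.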

How the data were processed

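RNA from 2 libraries each of FLO-1LM and FLO-1 parental cells was measured by RNAseq. Per the labels and methods, the authors prepared directional libraries, used bcl2fastq 2.17, trimmed adapters with Trimmomatic 0.30 and mapped reads to GRCh37. The aligner, counting program and strand setting are not given in the sources used here. The deposited files hold, for each library, unnormalized read counts on Ensembl genes.

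Groups came from the cell line labels. In R 4.3.3, genes were filtered with filterByExpr (minimum count 10, minimum total 15), scaled by TMM and tested with edgeR 4.0.16 (glmQLFit, glmQLFTest) across all 17143 genes, with Benjamini and Hochberg adjustment over all of them and a threshold of 0.05. Standard errors were obtained as the size of the log2 fold change over the root of the F statistic. With 2 libraries per line a permutation test cannot go below 0.333. DESeq2 1.42.0, limma 3.58.1 (voom), other scalings and filters, and each library left out were alternatives. Levels per length used GENCODE v44 on GRCh37, which matched 55665 of 63677 gene IDs; *PECAM1*, an endothelial marker, had none. A further gene list is not reported here. Members and lists were chosen with earlier results of these data known. Named genes were the 9 members, then per list every called gene followed by the most abundant, up to 4 in all. Further genes near 0 counts, *GPR123*, *CCN1*, *RPL17P6*, *IFI44* and *TTLL7* were named after their values were seen. Python 3.11.15 and scipy 1.17.1 gave the Wilson intervals.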

Additional observations from a re-analysis of the deposited data

How the results depend on the processing

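No paired analysis was possible because the labels number no replicates, and the numbers used here only name libraries in the order of their records. *LPHN2* was higher in FLO-1LM under all 11 alternatives, with log2 fold changes from 1.41 to 1.65. All 11 reuse the counts on which the set was chosen, so this is a description and not support. The other 7 tested members kept their sign in all 11. Since the alternatives share libraries, a kept sign says little for small differences, such as *CD97* at −0.01 without FLO-1LM replicate 2. The number of genes called over the whole table was 577 with every gene with a count kept and ran from 116 to 1052 with a library left out. Of the ligand and partner genes, 1 was called by DESeq2 and 1 by limma voom, *UNC5B* in both, and 0 to 4 with a library left out: *ITGB1* and *ARRB2* passed without FLO-1LM replicate 1. Of the other adhesion GPCR genes, 0 were called under any alternative. Scaled by the longest transcript, 2 of the 9 genes changed rank. With a library left out, the line it came from rests on 1 library, which is assumed to vary like the pair that is left, and the cause of these shifts was not tested. Depth limits what can be said of genes with few counts: at 0 counts a level of up to 0.156 CPM remains possible.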
